A study of Mus musculus with 96 samples.

Results

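The hippocampus of Scx-/- mice was compared with that of wild-type mice, all 3 weeks old. Its 6 libraries, 3 of each genotype, were chosen by the tissue and genotype in their titles out of 96 libraries that cover 16 tissues. Of the 41575 gene symbols counted, 14117 had a count in at least 1 of the 6 libraries, and each of these was tested. RNA of frozen tissue was sequenced in bulk with a barcoded method that enriches the 3′ ends of transcripts. The study describes the same protocol for both genotypes and names no treatment of these mice. Whether their libraries were made together is not stated. No Cre driver is named for the Scx-/- mice, and the part of the gene that their allele lacks, their sex and the mouse behind each library could not be taken from the sources used here, so p-values measure the spread between libraries, which may be partly technical.

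Scx encodes scleraxis, a basic helix-loop-helix transcription factor known for its part in the growth of tendons and ligaments. The hippocampus is a folded region of the forebrain that serves memory and navigation, and signals pass in it from the granule cells of the dentate gyrus to the pyramidal cells of the CA fields. Its astrocytes clear glutamate from synapses, turn it into glutamine and metabolise glucose, its oligodendrocytes make myelin, and its dentate gyrus goes on making neurons after birth.

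The genotypes differed in depth. Wild-type libraries held 118567, 184695 and 142967 counts and Scx-/- libraries 483351, 511781 and 255264, so the groups did not overlap. Genes detected numbered 7204 to 8249 in wild-type and 9055 to 10977 in Scx-/- libraries. After every library was thinned to 118567 counts, wild-type libraries showed 7204 to 7836 genes and Scx-/- libraries 8366 to 9518, still without overlap, while the cortex libraries of both genotypes showed 9830 to 10705. A count of 0 allowed a level of up to 16.2 to 25.3 counts per 1000000 counts of the library (CPM) in single wild-type libraries and 5.86 to 11.8 CPM in single Scx-/- libraries. These limits cover counting error only. Genes that every cell uses were also without a count in all 6 libraries, among them 10 of 79 cytosolic ribosomal protein genes (such as Rps7 and Rps18) and the respiratory chain genes Ndufs3 and Uqcrc1, so a gene listed at 0 below is not thereby shown to be unexpressed. Counts of the mitochondrial ribosomal RNAs Rnr1 and Rnr2 made up 7.58% to 11.1% of the wild-type and 8.05% to 9.02% of the Scx-/- totals. The part of depth in the differences between the genotypes was not tested beyond the thinned libraries.

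**Figure D1:**
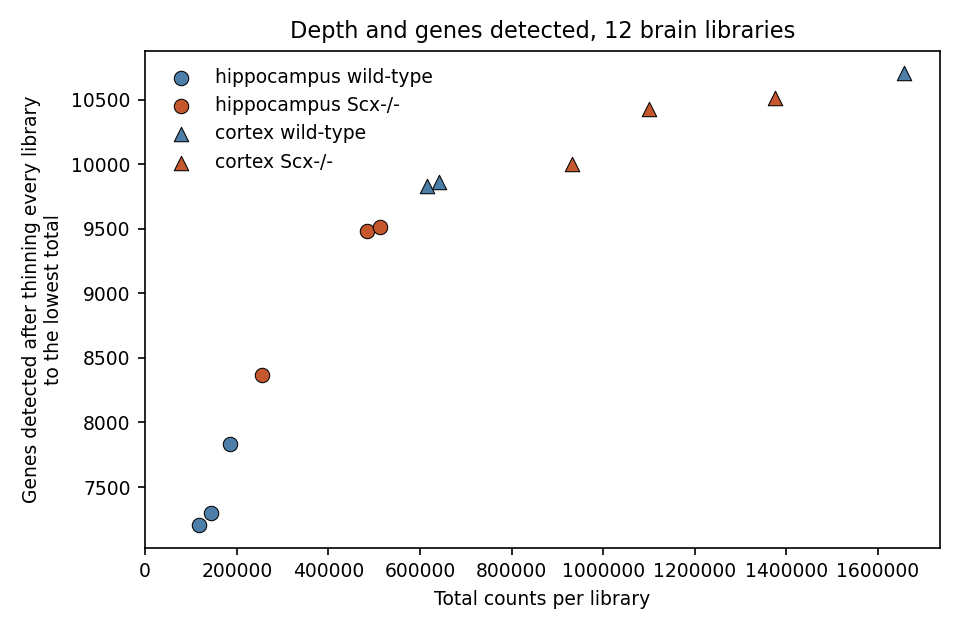
Genes detected after thinning every library to the lowest total (vertical axis, number of genes) against the total counts of the library (horizontal axis); circles are hippocampus, triangles cortex, and the colours mark genotype. The 3 wild-type hippocampus libraries lie lowest on both axes, at 7204 to 7836 genes, and the 3 Scx-/- hippocampus libraries at 8366 to 9518.

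Scx itself had 0 counts in each of the 6 hippocampus libraries, so the targeted gene cannot check the genotype labels in this tissue. Scx lies on chromosome 15 of GRCm38 at 76457452 to 76459458 on the plus strand. This is within the span of Bop1, a gene for ribosome assembly on the minus strand at 76452989 to 76477277. Bop1 had 1, 0 and 18 counts in wild-type libraries and 23, 25 and 21 in Scx-/- libraries, which is 8.43, 0 and 126 CPM against 47.6, 48.8 and 82.3 CPM. The groups overlapped, and Bop1 was not called (adjusted p = 0.94, edgeR quasi-likelihood test).

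The tissue label was held against marker genes. Zbtb20, a transcription factor of CA1 pyramidal cells, stood at 1210 to 1366 CPM in the wild-type and 1030 to 1212 CPM in the Scx-/- hippocampus, against 63.2 to 279 CPM over the 6 cortex libraries. Prox1, which marks dentate granule cells, stood at 90.9 to 253 CPM in wild-type, 45.5 to 76.2 CPM in Scx-/- and 0 to 23.5 CPM in cortex libraries. In both cases every hippocampus library lay above every cortex library, as it did for the sums of the dentate and CA1 lists. Other members did not part the tissues. Mpped1 of CA1 stood at 135 to 354 CPM in hippocampus and 247 to 299 CPM in cortex. Calb1 of the dentate gyrus stood at 54.7 to 161 CPM and 101 to 177 CPM. The CA3 list, at 312 to 741 CPM in hippocampus and 366 to 525 CPM in cortex, overlapped as well. The 14 cortical layer genes summed to 1108 to 1414 CPM in hippocampus and 2954 to 3657 CPM in cortex.

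Across all genes, few differences stood out from the spread between libraries. At the thresholds the study used (unadjusted p under 0.05 and an absolute log2 fold change above 1), edgeR called 345 genes higher and 207 lower in Scx-/- hippocampus. That is 2.44% and 1.47% of the genes tested. A total of 581 genes, or 4.12% of those tested, had an unadjusted p under 0.05 at any fold change. One gene, Aldoc, passed an adjusted p of 0.05 (0.00708%). The CPM of the genotypes did not overlap for 971 genes that were higher (6.88%) and 323 that were lower (2.29%) in all 3 Scx-/- libraries, and for 555 (7.44%) and 286 (3.84%) of the 7457 genes with at least 20 CPM as the mean of both group means. A gene described below as called passed the study's thresholds only, and unless another value is given its adjusted p in hippocampus was 0.762.

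The direction of the called genes rested on the scaling of the libraries. TMM scaling gave 62.5% higher calls, whereas DESeq2's size factors (RLE) in edgeR gave 265 higher and 283 lower calls, library totals gave 276 and 270, and DESeq2 itself gave 268 and 240. Over those 7457 genes, the median log2 fold change was 0.14 with TMM, -0.04 with those size factors and -0.02 with library totals. Fold changes and the list medians below, all with TMM unless another scaling is named, are therefore best read against 0.14. Every list median was lower with those size factors than with TMM, and of the medians printed below those of the astrocyte, glycolysis, presynaptic, postsynaptic, dentate and neurogenesis lists turned negative.

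Many calls were made on genes that one group did not show. Of the 2990 tested genes with no count in any wild-type library, 203 were called higher, and all 203 had counts in cortex. Of the 878 with no count in any Scx-/- library, 149 were called lower, and 125 of these had counts in cortex. With at least 20 CPM, 205 genes were called higher and 80 lower (2.75% and 1.07% of 7457). With at least 200 CPM, 17 of 891 genes were called higher and 8 lower.

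**Figure D2:**
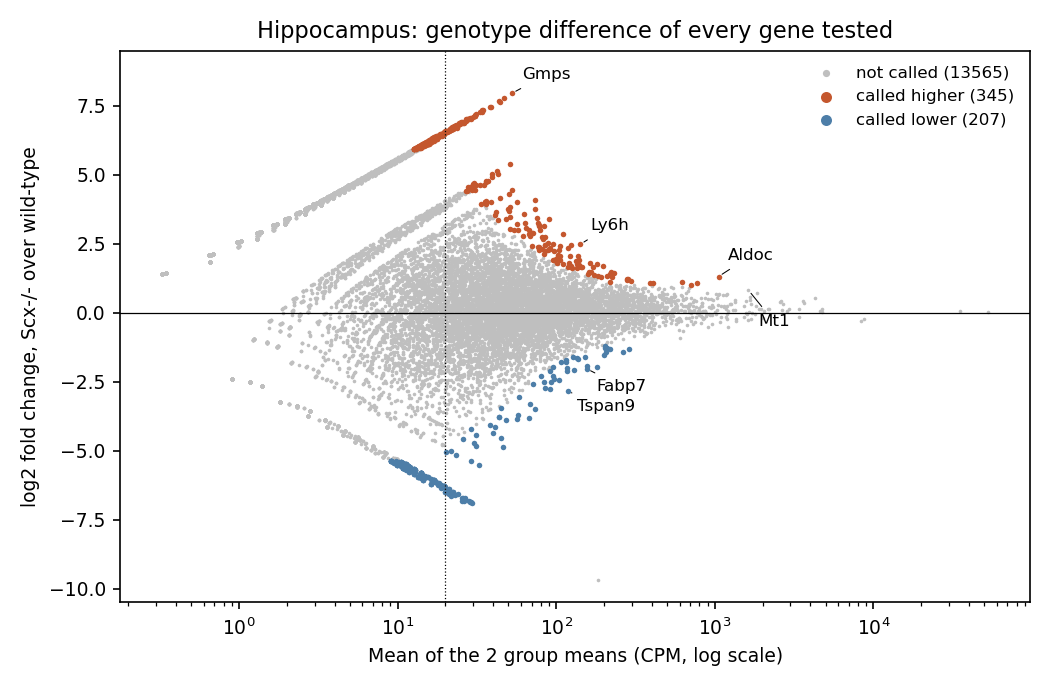
Log2 fold change of Scx-/- over wild-type hippocampus (vertical axis) against the mean of both group means (horizontal axis, CPM, log scale) for the 14117 genes tested; the dotted line marks 20 CPM. Genes called higher (345) and lower (207) form the outer edges, the straight bands at low CPM are genes with no count in one group, and Aldoc lies at the right end of the called genes.

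Aldoc was higher in Scx-/- than in wild-type hippocampus. Aldoc encodes aldolase C, the aldolase of glycolysis that astrocytes and Purkinje cells express, and lies on chromosome 11 of GRCm38 at 78322968 to 78327781. Its level was 919, 493 and 567 CPM in wild-type libraries (mean 660 ± 228, SD, n = 3). In Scx-/- libraries it was 1479, 1323 and 1559 CPM (mean 1454 ± 120, SD, n = 3). Every Scx-/- library lay above every wild-type library. The log2 fold change was 1.32 with a standard error of 0.28 and an edgeR adjusted p of 0.0471. This call was near the threshold. The adjusted p was 0.942, 0.229 and 0.546 without Scx-/- replicates 1, 2 and 3, and 0.00173, 0.164 and 0.0753 without wild-type replicates 1, 2 and 3. Over all 16 alternatives the log2 fold change stayed between 1.13 and 1.59, and the adjusted p lay between 0.000125 and 0.999 and under 0.05 in 3. In cortex Aldoc stood at 874 to 1205 CPM in wild-type and 959 to 1286 CPM in Scx-/- libraries, with a log2 fold change of 0.12 (standard error 0.16). The difference between the effects in the tissues, 1.19 with a standard error of 0.32, did not pass (adjusted p = 0.383).

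Aldoc was the only called gene among the 27 astrocyte genes with a count (3.7% higher, beside 2.44% of all genes). The list summed to 23497, 22941 and 20075 CPM in wild-type and 22979, 24227 and 23877 CPM in Scx-/- libraries, so the groups overlapped, and the median over 26 members was 0.09. In bulk RNA, fewer cells of a type and less RNA per cell cannot be told apart. The 3 members of highest CPM differed little. Apoe, which carries lipids between cells, had a log2 fold change of 0.13, Cst3, the protease inhibitor cystatin C, one of 0.05, and Sparcl1, a secreted matrix protein, one of 0.31.

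Other genes of astrocytes had values on both sides. Those given here were chosen after their values were seen and stand for no group. Glul, the enzyme that makes glutamine from glutamate, stood at 1156, 1440 and 1875 CPM in wild-type and 2054, 2159 and 2417 CPM in Scx-/- libraries. These groups did not overlap, and the log2 fold change was 0.73 (standard error 0.23). The glutamate transporter Slc1a2 stood at 919, 1034 and 560 CPM in wild-type and 1440, 1163 and 1022 CPM in Scx-/- libraries, with 1 wild-type library above the lowest Scx-/- library. The other astrocyte glutamate transporter, Slc1a3, had a log2 fold change of 0.46 with a standard error of 0.37. Gja1, the gap junction protein connexin 43, stood at 245, 363 and 182 CPM in wild-type and at 368, 420 and 552 CPM in Scx-/- libraries, and its groups did not overlap. Gfap, an intermediate filament of astrocytes, and Aqp4, their water channel, had log2 fold changes of -0.61 and -0.40 with standard errors of 1.03 and 0.87. In cortex the log2 fold changes of Glul, Slc1a2 and Gja1 were -0.11, 0.15 and -0.37. Fabp7 and Serpina3n, which astrocytes also express and which are not on the list, were called lower, with log2 fold changes of -2.03 and -2.31.

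Genes that respond to glucocorticoids, the metallothioneins among them, gave 3 calls, all higher. Glucocorticoid hormones enter cells, bind a receptor that acts as a transcription factor, and raise genes of metal binding, ion transport and metabolism. Of 15 list members with a count, Sgk1, Mt2 and Zbtb16 were called higher and none lower, beside 2.44% higher and 1.47% lower of all genes, and the median over 12 members was 0.50 (0.32 with DESeq2's size factors, where all genes stood at -0.04). This median rested on wild-type replicate 3, without which it was 0.09, below the 0.14 of all genes, and it ranged up to 1.06 without wild-type replicate 2. The number of called members ran from 1, without Scx-/- replicate 1 or 2, to 5, without wild-type replicate 1. The summed level was 3247, 3032 and 1805 CPM in wild-type and 3623, 4670 and 4470 CPM in Scx-/- libraries, without overlap. Mt1 and Mt2 made up the larger part of this sum in each of these libraries. In cortex the sums were 4809, 3107 and 3476 CPM in wild-type and 2958, 4400 and 4249 CPM in Scx-/- libraries, and overlapped.

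Mt1 and Mt2, neighbours on chromosome 8, encode small proteins that bind zinc and copper. Mt1 stood at 1248, 1592 and 909 CPM in wild-type and 1622, 2116 and 2280 CPM in Scx-/- libraries. Its groups did not overlap, and its log2 fold change of 0.82 (standard error 0.24) lay under the study's threshold. Mt2 stood at 633, 341 and 322 CPM in wild-type and 573, 1163 and 721 CPM in Scx-/- libraries, with a log2 fold change of 1.11, and its groups overlapped. Sgk1, a kinase that regulates ion channels and transporters, was called at 101, 173 and 119 CPM against 327, 215 and 384 CPM, without overlap. Zbtb16, a zinc finger repressor, was called at 84.3, 0 and 56.0 CPM against 130, 221 and 141 CPM, also without overlap. The call of Mt2 was lost without Scx-/- replicate 2 or wild-type replicate 3 and under DESeq2, RLE size factors, library totals and filterByExpr, edgeR's filter on low counts. That of Sgk1 was lost without Scx-/- replicate 1 or 3, and that of Zbtb16 without Scx-/- replicate 1 or 2 or wild-type replicate 2 and under DESeq2, filterByExpr and thinning to equal depth. Fkbp5, a chaperone of the glucocorticoid receptor, was listed at 0 in all 6 libraries, as were genes that every cell uses, so its level could not be read. Klf9, a transcription factor, had a log2 fold change of 0.72 and Tsc22d3, which encodes a leucine zipper protein, one of 0.57, and neither was called.

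**Figure D3:**
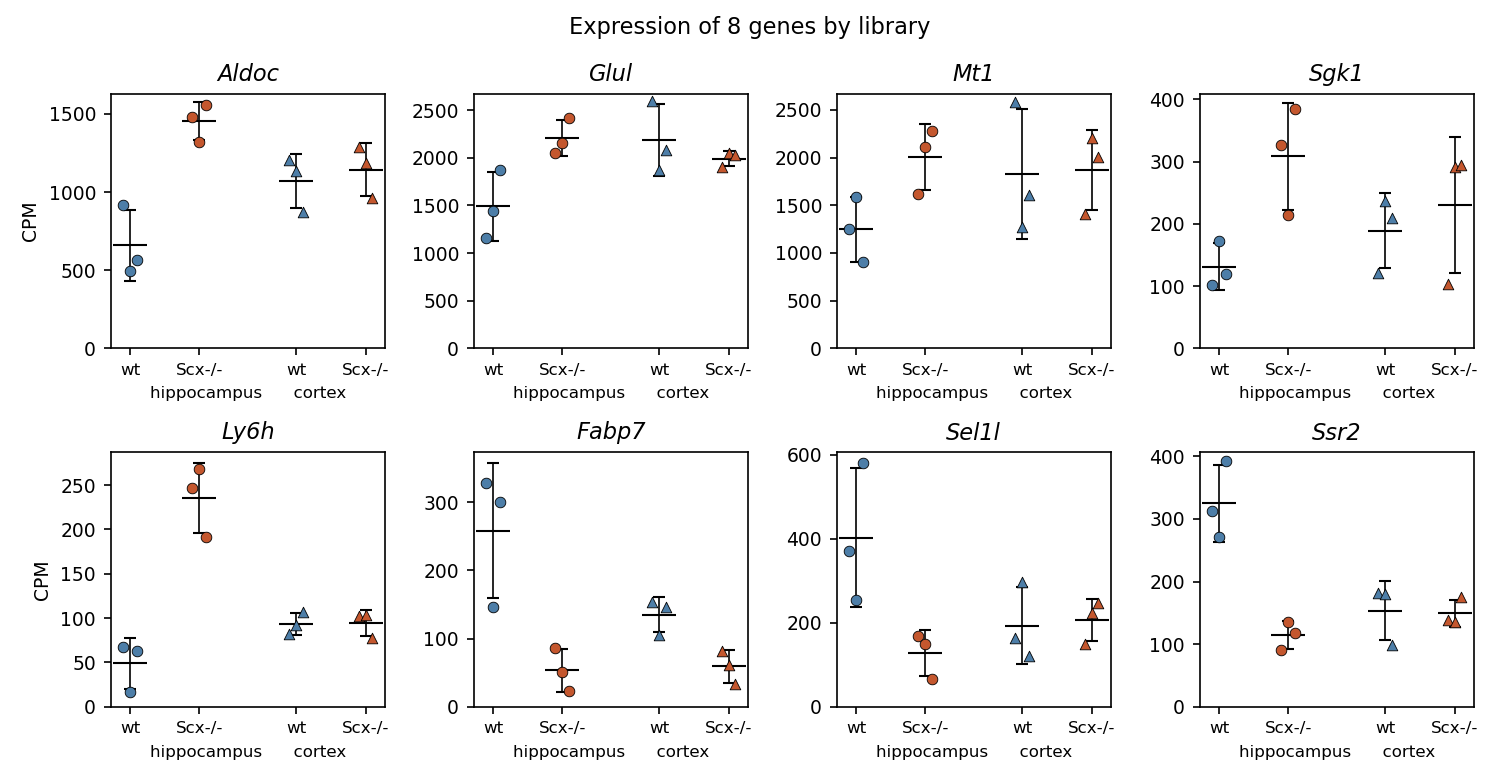
CPM (vertical axis) of 8 genes in each library of hippocampus (circles) and cortex (triangles), wild-type in blue and Scx-/- in orange; horizontal marks are means and bars are SD over 3 libraries. In hippocampus the groups do not overlap for any of the 8 genes, with Aldoc, Glul, Mt1, Sgk1 and Ly6h higher and Fabp7, Sel1l and Ssr2 lower in Scx-/-, while in cortex the groups overlap for all but Fabp7.

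Genes of energy metabolism were called at about the share of all genes. Glycolysis splits glucose into pyruvate, and the respiratory chain of mitochondria uses what follows to make ATP. Aldoc was the only called member of 20 glycolysis genes with a count (5% higher, beside 2.44% of all genes). Their median over 15 members was 0.03. Pkm, the pyruvate kinase of the last step, had a log2 fold change of 0.68 with a standard error of 0.28, Aldoa, the aldolase of muscle and neurons, one of 0.15, and Eno2, the enolase of neurons, one of -0.33. Of 72 nuclear-encoded respiratory chain genes with a count, Cox5b and Cox6a1 were called higher and Ndufa10 lower, which is 2.78% and 1.39% beside 2.44% and 1.47% of all genes. The median over 67 members was 0.29 (0.10 with DESeq2's size factors). Cox6a1, a subunit of cytochrome c oxidase, stood at 346, 466 and 706 CPM in wild-type and 904, 1069 and 772 CPM in Scx-/- libraries. These groups did not overlap. Its log2 fold change was 1.03 in hippocampus and 0.52 in cortex, where its standard error was 0.17. Cox5b, another subunit of that enzyme, stood at 219, 200 and 126 CPM against 327, 436 and 372 CPM, also without overlap. Ndufa10, an accessory subunit of complex I, stood at 253, 32.5 and 350 CPM against 37.2, 74.3 and 62.7 CPM, with overlap. All 3 calls were lost when libraries were thinned to equal depth. The call of Cox6a1 was also lost under DESeq2, RLE size factors, library totals, filterByExpr and the minimum of 20 CPM and without Scx-/- replicate 2 or wild-type replicate 1. That of Cox5b was also lost without Scx-/- replicate 2 or wild-type replicate 3, and that of Ndufa10 with a replicate block and without any of 4 libraries (replicates 1 and 3 of either genotype).

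Among 69 cytosolic ribosomal protein genes with a count, Rpl32 was called higher and Rpl9 and Rps16 lower, which is 1.45% and 2.9% beside 2.44% and 1.47% of all genes. The median over 39 members was 0.18 (0.01 with DESeq2's size factors), and it ran from -0.016 without Scx-/- replicate 2 to 0.35 without wild-type replicate 2. Rpl32, a protein of the large subunit, stood at 110, 65.0 and 97.9 CPM in wild-type and 364, 227 and 223 CPM in Scx-/- libraries, without overlap, and lost its call without Scx-/- replicate 1. Rpl9 was seen in 1 wild-type library at 84.3 CPM and Rps16 in 2 at 25.3 and 32.5 CPM, and neither had a count in Scx-/- libraries. Both calls were lost without any 1 Scx-/- library, under DESeq2, with a replicate block and at equal depth, and that of Rps16 also without wild-type replicate 1 or 2 and without robust estimation. Ribosomal protein genes have many near-identical pseudogenes, between which the counting could have split or moved reads, so these values are uncertain.

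The largest rises among called genes of at least 50 CPM without overlap were of genes near 0 in wild-type libraries. They reached that minimum through the Scx-/- libraries. The 10 largest were those of Gmps, Tbpl1, Ptp4a3, D2Wsu81e, Spata2l, Tsr2, Tmem258, Stxbp6, Cxcl12 and Rab26. Gmps, the last enzyme in the synthesis of GMP, had 0 counts in all wild-type libraries and 99.3, 166 and 50.9 CPM in Scx-/- libraries. Against 3 counts over the wild-type group, Gmps was at least 17.4-fold higher. In cortex Gmps stood at 12.4 to 92.5 CPM in wild-type and 47.3 to 74.6 CPM in Scx-/- libraries, a range that the Scx-/- hippocampus libraries reached or passed. Tbpl1, a relative of the TATA-binding protein, had 1 count over the wild-type group and 111 over the Scx-/- group, a ratio of 39.6 with a 95% counting interval of 6.96 to 1580. This interval and the bound for Gmps cover counting error only, not the spread between libraries. Tbpl1 stood at 62.2 to 101 CPM in wild-type and 42.9 to 63.7 CPM in Scx-/- cortex.

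Spata2l, a relative of the signalling adaptor SPATA2, stood at 0, 16.2 and 6.99 CPM in wild-type and 143, 76.2 and 196 CPM in Scx-/- libraries, with a log2 fold change of 4.08 and a standard error of 1.31. Cxcl12, a chemokine that guides migrating neurons and precursors, was counted in wild-type replicate 2 alone at 27.1 CPM, against 86.9, 111 and 153 CPM. Rab26, a GTPase of synaptic vesicles, stood at 8.43, 5.41 and 14 CPM against 134, 66.4 and 78.3 CPM. The calls of Gmps, Tbpl1 and Spata2l were kept without each library in turn, that of Cxcl12 was lost without Scx-/- replicate 3, and that of Rab26 without any 1 of the Scx-/- libraries, at equal depth and with a replicate block.

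A further 3 genes, described here because their values were seen, had counts in wild-type libraries and kept their calls without each library in turn. Ly6h, a GPI-anchored neuronal protein that binds nicotinic receptors, stood at 67.5, 16.2 and 63.0 CPM in wild-type and 246, 268 and 192 CPM in Scx-/- libraries. Its log2 fold change was 2.48 (standard error 0.76), against 0.04 in cortex, where its 6 libraries held 77.1 to 107 CPM. Cab39, the scaffold of the kinase LKB1, stood at 0, 54.1 and 28.0 CPM against 194, 201 and 184 CPM. Rcn2, a calcium-binding protein of the endoplasmic reticulum, stood at 0, 32.5 and 14 CPM against 168, 197 and 129 CPM. The groups of none of the 3 overlapped.

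The largest falls by the same rule included those of Tmem94, Dnajc14, Mapk1ip1, Tspan9, Gtpbp1, Chic1, Clk1, Pdia4 and Serpina3n, which reached the minimum through the wild-type libraries. Tspan9, a tetraspanin of the cell membrane, stood at 363, 65.0 and 203 CPM in wild-type and 10.3, 27.4 and 39.2 CPM in Scx-/- libraries, a log2 fold change of -2.84 with a standard error of 0.92. Tmem94, a transmembrane protein, stood at 127, 103 and 90.9 CPM against 0, 1.95 and 19.6 CPM. Clk1, a kinase of splicing factors, stood at 169, 103 and 266 CPM against 57.9, 21.5 and 3.92 CPM. Serpina3n, a protease inhibitor that reactive astrocytes secrete, stood at 202, 130 and 76.9 CPM against 45.5, 13.7 and 11.8 CPM, and at 0 to 21.7 CPM in cortex. Each of these calls was lost without at least 1 library. That of Tspan9 was lost without wild-type replicate 1, that of Tmem94 without Scx-/- replicate 1 or 2, that of Clk1 without replicate 3 of either genotype, and that of Serpina3n without Scx-/- replicate 2 or 3 or wild-type replicate 1 or 2 and with a replicate block.

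Hsp90b1, Sel1l, Ssr2 and Pdia4 were called lower. Hsp90b1 belongs to the heat shock list and Pdia4 to the largest falls, while Sel1l and Ssr2 were chosen after their values were seen. All 4 encode proteins of the endoplasmic reticulum, but no list of its genes was counted, and Rcn2 and Tmem258, which also encode proteins of this compartment, were called higher. Hsp90b1, its HSP90 chaperone, stood at 169, 352 and 399 CPM in wild-type and 134, 58.6 and 94.0 CPM in Scx-/- libraries. Sel1l, a subunit of the machinery that removes misfolded proteins, stood at 371, 254 and 580.5 CPM against 168, 150 and 66.6 CPM. Ssr2, a subunit of the translocon-associated complex, stood at 312, 271 and 392 CPM against 91.0, 135 and 118 CPM. The disulfide isomerase Pdia4 stood at 304, 146 and 49.0 CPM against 35.2, 3.91 and 47.0 CPM. None of these groups overlapped. The calls were lost without Scx-/- replicate 2 for Hsp90b1, without replicate 3 of either genotype for Sel1l, without Scx-/- replicate 1 or wild-type replicate 3 for Ssr2, and without Scx-/- replicate 2 or wild-type replicate 1 or with a replicate block for Pdia4. Hspa5, the HSP70 chaperone there, stood at 238 to 287 CPM against 94.0 to 223 CPM, also without overlap, and was not called (log2 fold change -0.63). Its log2 fold change in cortex was -0.59, while those of Hsp90b1, Sel1l, Ssr2 and Pdia4 there were -0.39, 0.13, -0.01 and 0.40.

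Fabp7 was called lower in both tissues. Fabp7 binds fatty acids in radial glia, neural stem cells and astrocytes, and is named here because its values were seen. It stood at 329, 146 and 301 CPM in wild-type and 86.9, 50.8 and 23.5 CPM in Scx-/- hippocampus, with a log2 fold change of -2.03 (standard error 0.73). In cortex it stood at 154, 106 and 146 CPM against 81.5, 61.8 and 34.2 CPM, with a log2 fold change of -1.18 (standard error 0.39, edgeR adjusted p 0.83). The groups overlapped in neither tissue, and the call in hippocampus was kept without each library in turn.

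Genes of hippocampal neurons and synapses gave calls near the background. None of the 22 presynaptic and none of the 22 postsynaptic genes with a count was called, and their medians were 0.08 and 0.16. Snap25, a protein of vesicle fusion, had a log2 fold change of 0.06, Ppp3ca, the calcineurin subunit, one of 0.09, and Camk2b, a kinase of the postsynapse, one of -0.01. Nrgn, which holds calmodulin at synapses, stood at 2269, 2431 and 2420 CPM in wild-type and 2946, 2781 and 2664 CPM in Scx-/- libraries, without overlap, with a log2 fold change of 0.40. Dnm1, the dynamin of vesicle recycling, stood at 945, 828 and 1147 CPM against 1473, 1477 and 1242 CPM, without overlap and with a log2 fold change of 0.70. Neither gene reached the study's fold threshold. None of the 16 interneuron genes was called, and Gad1, which makes GABA, had a log2 fold change of 0.12.

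Of 12 dentate granule cell genes 1 was called (8.33% higher, beside 2.44% of all genes), Stxbp6, a binding partner of syntaxin, which was higher at 80.7, 113 and 219 CPM against 0, 16.2 and 14 CPM. Stxbp6 lost its call without Scx-/- replicate 3. Prox1 and Dgkh, a diacylglycerol kinase, had values on the other side, and their groups did not overlap either. Dgkh stood at 489, 368 and 371 CPM in wild-type and 234, 274 and 239 CPM in Scx-/- libraries, with a log2 fold change of -0.55, and Prox1 had one of -1.16 with a standard error of 0.93. The median of the list was 0.10, and -0.49 without Scx-/- replicate 3. Of 10 CA1 genes Nov, a secreted matricellular protein, was called higher (10%, beside 2.44% of all genes). Nov stood at 0, 168 and 56.0 CPM against 254, 150 and 353 CPM, with overlap. Its call was lost without Scx-/- replicate 3 and under DESeq2 and filterByExpr. None of the 8 CA3 genes with a count was called. The dentate, CA1 and CA3 lists summed to 797 to 1096, 1931 to 2741 and 357 to 741 CPM in wild-type libraries. In Scx-/- libraries they summed to 666 to 936, 2253 to 2394 and 312 to 639 CPM, and all 3 overlapped.

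Immediate early genes, which neurons switch on within minutes of activity, had 1 call, higher, among 23 members with a count (4.35%, beside 2.44% of all genes). Nr4a3, an orphan nuclear receptor, was higher at 116, 80.1 and 262 CPM against 0, 75.8 and 14 CPM, and lost its call without Scx-/- replicate 3. Nr4a1, its relative, stood at 8.43, 27.1 and 42.0 CPM in wild-type and 122, 87.9 and 114 CPM in Scx-/- libraries, and Arc, a protein of synaptic plasticity, at 50.6, 10.8 and 35 against 82.8, 68.4 and 97.9 CPM. Neither was called, though the groups of both did not overlap, as on the higher side for 7.44% of genes of at least 20 CPM. Egr3, a zinc finger factor of the same response, stood at 152, 70.4 and 6.99 CPM in wild-type and 176, 141 and 239 CPM in Scx-/- libraries. Its groups overlapped, and it was not called (log2 fold change 1.44). Egr1, another such factor, had a log2 fold change of -0.26 and Fos one of -1.23, and both overlapped. Nr4a1, Arc and Fos were chosen after their values were seen. The median of the list was 0.23 (0.06 with DESeq2's size factors), and it reached 0.67 without wild-type replicate 1. None of the 18 clock genes with a count was called, and their median over 14 members was 0.45 (0.27 with DESeq2's size factors).

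Of 19 genes of neurogenesis with a count, Stmn1, a microtubule-binding protein of young neurons, was called higher (5.26%, beside 2.44% of all genes). Stmn1 stood at 42.2, 65.0 and 0 CPM in wild-type and 221, 44.9 and 212 CPM in Scx-/- libraries, with overlap. In cortex it stood at 144, 212 and 1.62 CPM against 270, 160 and 341 CPM, so wild-type replicate 3 was at or near 0 in both tissues. Without that library, or without Scx-/- replicate 1 or 3, the call was lost, as it was with filterByExpr, a replicate block and equal depth. The median of the list was 0.17, and -0.30 without Scx-/- replicate 2.

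**Figure D4:**
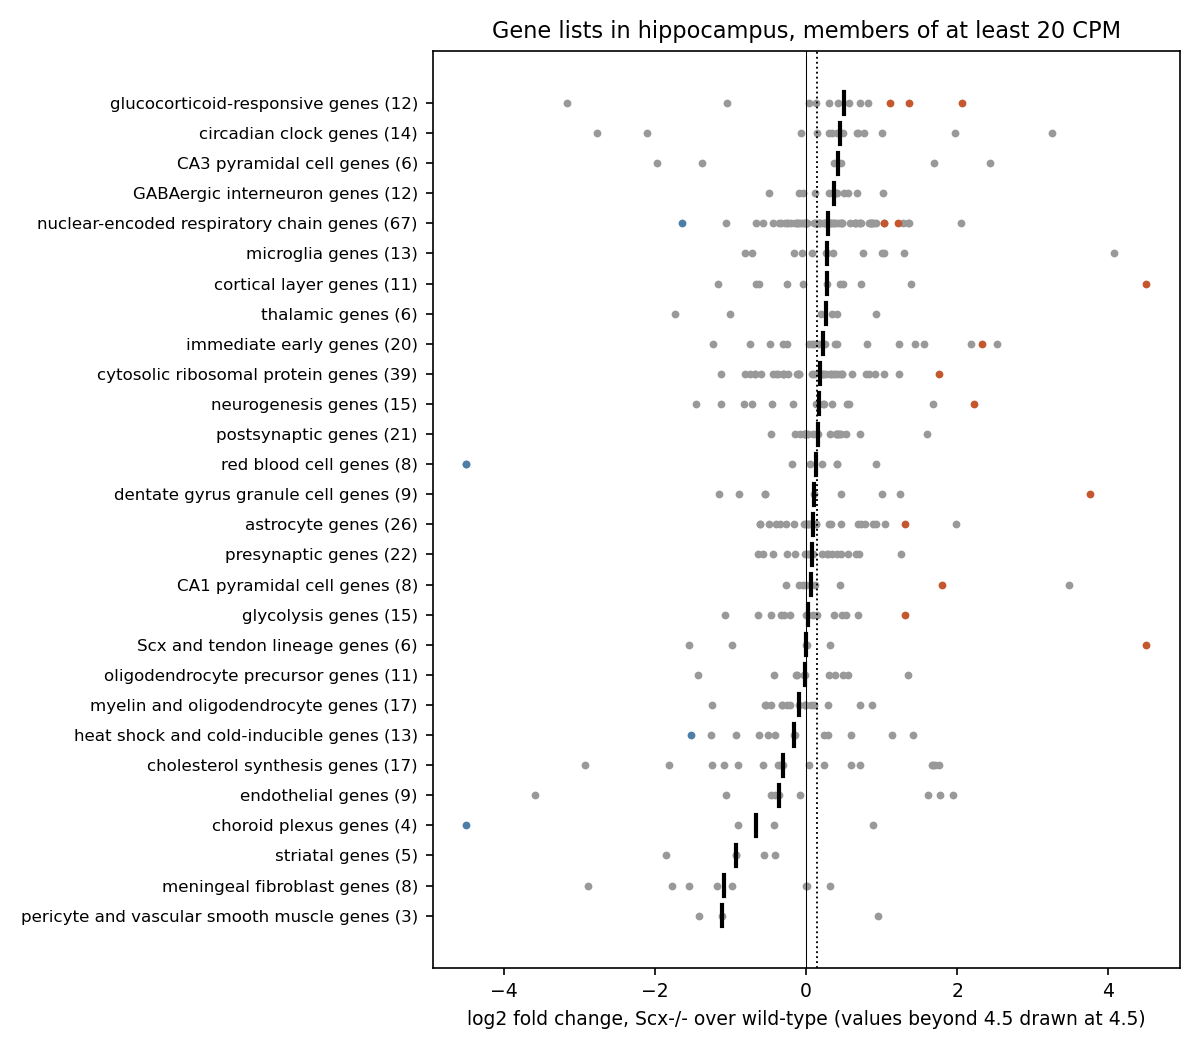
Log2 fold changes (horizontal axis) of the members of at least 20 CPM in each list with 3 or more such members, the number in brackets; orange points were called higher, blue points lower, grey points neither, black bars are list medians and the dotted line is the median over all genes of at least 20 CPM, 0.14. Most list medians lie near the dotted line, and the glucocorticoid-responsive genes, with a median of 0.50 (0.09 without wild-type replicate 3), hold 3 orange points.

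Genes of the striatum, which lies near the hippocampus, had lower summed levels in Scx-/- libraries. The 11 striatal genes described here summed to 413, 449 and 622 CPM in wild-type and 279, 238 and 243 CPM in Scx-/- hippocampus, without overlap. The median over 5 members of at least 20 CPM was -0.92, and all 5 were negative. In cortex the sums ran from 324 to 1179 CPM in wild-type and from 371 to 2392 CPM in Scx-/- libraries, and overlapped. Of the defining genes, Drd2 and Adora2a were listed at 0 in all 6 hippocampus libraries, as were genes that every cell uses, and Ppp1r1b, the phosphoprotein DARPP-32, stood at 0, 81.2 and 42.0 CPM in wild-type and 45.5, 0 and 43.1 CPM in Scx-/- libraries. Of 9 members with a count, Penk, the precursor of enkephalins, was called higher (11.1%, beside 2.44% of all genes). Penk stood at 0 in wild-type and 26.9, 41.0 and 31.3 CPM in Scx-/- libraries. It lost its call without any of 5 libraries, all but Scx-/- replicate 3, and with a replicate block. The part of neighbouring tissue in these levels was not tested.

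Markers of the ventricle lining varied between libraries of each genotype. Ttr, the thyroxine carrier that the choroid plexus makes, stood at 675, 449 and 413 CPM in wild-type and 271, 860 and 1434 CPM in Scx-/- libraries, and was not called. Clic6, a chloride channel protein of that tissue, stood at 0, 54.1 and 83.9 CPM against 0 counts in all Scx-/- libraries, so wild-type replicate 1 matched them. On counts summed over the groups it was at least 20.5-fold lower, counting error alone considered. Clic6 was the only call among 10 choroid plexus genes with a count (10% lower, beside 1.47% of all genes), and was not called with a replicate block. In cortex Clic6 was called in the opposite direction (log2 fold change 6.55, adjusted p = 0.83 in edgeR), with no count in wild-type libraries and 0, 0.91 and 31.3 CPM in Scx-/- libraries. The 13 choroid plexus genes summed to 671 to 964 CPM in wild-type and 507 to 1759 CPM in Scx-/- libraries. Among 8 ependymal genes with a count, Dynlrb2, a light chain of dynein, was called lower (12.5%, beside 1.47% of all genes). Dynlrb2 was counted in wild-type replicate 3 alone, at 83.9 CPM. Its call was lost without any 1 Scx-/- library, under DESeq2, with a replicate block and at equal depth.

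Lists of other glia, vessels and blood gave 3 calls, beside calls for 3.91% of all genes. Of 18 myelin genes with a count none was called, and the list summed to 20351, 23931 and 8387 CPM in wild-type and 12438, 17466 and 11941 CPM in Scx-/- libraries. Wild-type replicate 3 was the lowest of the 6 and the other wild-type libraries were the highest. Mbp, the basic protein of myelin, stood at 11884, 13070 and 4344 CPM in wild-type and 6567, 9625 and 6695 CPM in Scx-/- libraries. None of the 14 oligodendrocyte precursor genes and none of the 15 endothelial genes with a count was called. Of 16 microglia genes with a count, Trem2, a lipid receptor, was called higher, with no count in wild-type libraries and 26.9, 60.6 and 0 CPM in Scx-/- libraries. Of 12 mural cell genes Myl9, a myosin light chain, was called higher in the same way, at 68.3, 31.3 and 0 CPM. The median over the 3 mural members of at least 20 CPM was -1.11, though 0.34 without wild-type replicate 1, and Rgs5, a regulator of G protein signalling in pericytes, and Tagln, an actin-binding protein of smooth muscle, had log2 fold changes of -1.11 and -1.41 with standard errors of 1.75 and 2.03. The calls of Trem2 and Myl9 were lost without any of 5 libraries, under DESeq2, with a replicate block and at equal depth. Hbb-bt, a beta-globin, was called lower through wild-type replicate 2 alone, at 130 CPM, though not with a replicate block.

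Genes of connective tissue, where Scx is known to act, gave 1 call over the tendon and meningeal lists, beside calls for 3.91% of all genes. Of 10 tendon lineage genes with a count, Thbs4, a matrix protein of tendon that astrocytes also make, was called higher at 47.6, 3.91 and 82.3 CPM against no count in wild-type. That was at least 5.47-fold on counts summed over the groups, counting error alone considered. The call was lost without Scx-/- replicate 3 and with a replicate block. The collagen chain Col1a1 stood at 75.9, 125 and 90.9 CPM in wild-type and 66.2, 27.4 and 39.2 CPM in Scx-/- libraries, without overlap and not called. None of the 11 meningeal fibroblast genes was called, and their median over 8 members was -1.08. It lay between -1.39 and -0.60 when a library was left out, was nearest 0 without wild-type replicate 1, and was -0.38 with a replicate block. Their summed levels overlapped, at 886, 493 and 658 CPM in wild-type and 507, 236 and 278 CPM in Scx-/- libraries. Scx, Tnmd, Kera and Chodl had no count in any of the 6 libraries. Of 15 heat shock and cold-inducible genes with a count 1 was called, Hsp90b1 (6.67% lower, beside 1.47% of all genes), and of 18 cholesterol synthesis genes none. The list medians were -0.16 and -0.31, the latter 0.24 without wild-type replicate 1.

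Few genes were called in both brain tissues, and the edgeR test of the difference between the genotype effects in hippocampus and cortex called 1 of 17514 genes (0.00571%) at an adjusted p of 0.05. This count was 0 at equal depth, 12, 20 and 6 without wild-type hippocampus replicates 1, 2 and 3, and 2 without Scx-/- hippocampus replicate 2. In cortex 467 of 16842 genes (2.77%) were called, 228 of them higher (1.35%) and 239 lower (1.42%). None (0.0%) passed an adjusted p of 0.05 in edgeR, while 620 (3.68%) had an unadjusted p under 0.05. The tissues shared 10 calls in the same direction, which is 1.81% of the hippocampus calls and 2.14% of the cortex calls, and 6 calls in opposite directions. Besides Fabp7 and Hbb-bt, the shared calls in 1 direction included Kcnt1, a sodium-activated potassium channel. Kcnt1 stood at 25.3, 0 and 0 CPM in wild-type and 91.0, 19.5 and 168 CPM in Scx-/- hippocampus, with a log2 fold change of 1.60 in cortex. The edgeR adjusted p of the cortex calls of Hbb-bt and Kcnt1 was 0.496 and 0.164. The part of differences between single mice in these shared calls was not tested.

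Some genes were present or absent alike in libraries of the same genotype and number in both tissues. Xist, which marks cells with an inactive X chromosome, was at 169, 357 and 670 CPM in wild-type replicates 1 and 3 and Scx-/- replicate 1 and at 0 in the other three. The 4 Y-linked genes Ddx3y, Eif2s3y, Kdm5d and Uty summed to 141, 209 and 188 CPM in those 3 and to 0 where Xist was counted. Each genotype thus held both patterns, with Xist in 2 wild-type libraries and 1 Scx-/- library, and cortex had the same pattern by number. Over the other 15 tissues the same was true of 84 of the 88 libraries with such counts, and the remaining 4 were of bone or cartilage. Hspa8, the constitutive HSP70 chaperone, stood at 649, 5.41 and 1875 CPM in wild-type and 12.4, 1084 and 0 CPM in Scx-/- hippocampus, and at 680, 12.4 and 1074 CPM against 3.22, 1086 and 8 CPM in cortex. Hbb-bs and Hbb-bt together reached 1229 CPM in wild-type replicate 2 and 0 in the other 5 hippocampus libraries, and 871 CPM in the same-numbered cortex library.

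**Figure D5:**
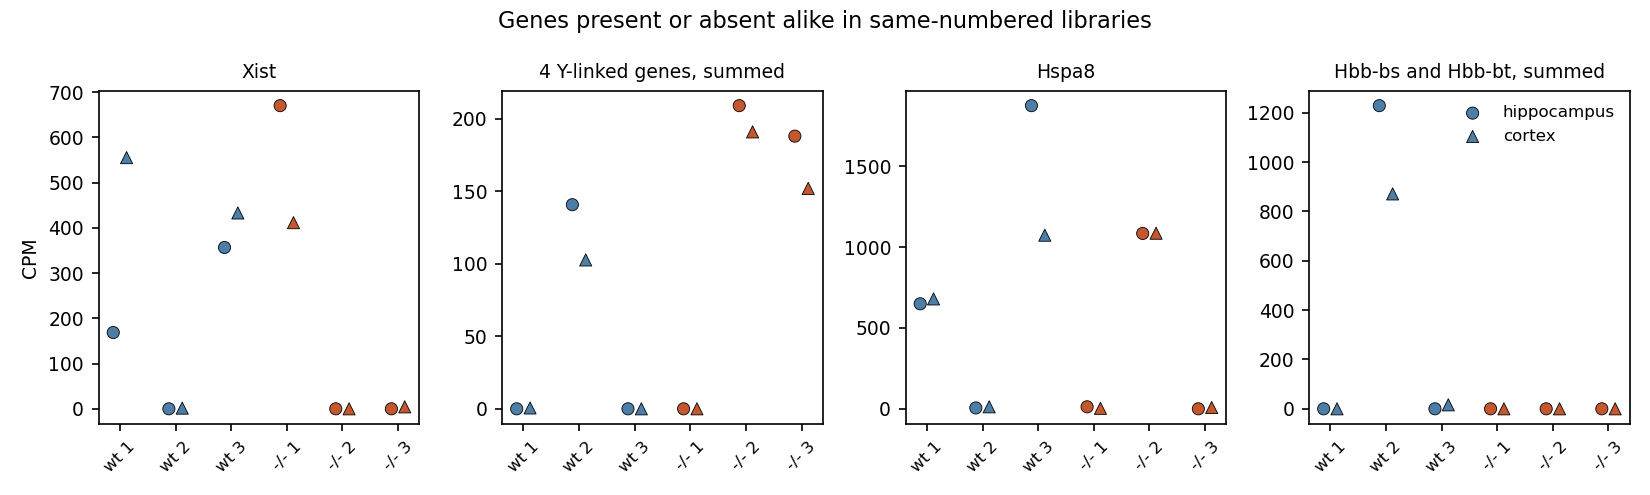
CPM (vertical axis) of Xist, of 4 Y-linked genes summed, of Hspa8 and of Hbb-bs with Hbb-bt in the libraries by genotype and number (horizontal axis), hippocampus as circles and cortex as triangles. High and low values fall on the same numbers in both tissues, such as Hspa8 at 5.41 and 12.4 CPM in wild-type replicate 2 and at 1084 and 1086 CPM in Scx-/- replicate 2.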

How the data were processed

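The authors reverse transcribed total RNA of each tissue, made libraries with Nextera XT, mapped reads to mm10 with Bowtie2 and ran HTSeq to obtain counts for each gene. The deposited table holds these raw counts, not normalized. Tool versions, annotation, strand setting and molecular identifiers: not given in the sources used here. Both genotypes of hippocampus and cortex were used, and the other tissues only for sex-linked genes and Hspa8.

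Genes with a count in at least 1 library were tested with edgeR 4.0.16 in R 4.3.3 (TMM factors, glmQLFit with robust estimation, glmQLFTest) on the 6 hippocampus libraries, with Benjamini-Hochberg adjustment over all genes tested. The difference between tissues was tested on 12 libraries. CPM used library totals. Fold bounds are against 3 counts over the group, and intervals are exact (95%). Both rest on counts summed over a group and cover counting error only, not the spread between libraries. Lists are described by called members, the median over members of at least 20 CPM and summed CPM, with no test. Python 3.11.15, pandas 2.3.3, scipy 1.17.1 and matplotlib 3.10.9 were used, and positions come from GENCODE for GRCm38.

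Genes named are those with an adjusted p under 0.05 in either test, the 10 largest called rises and falls without overlap at 50 CPM or more, the 3 members of highest CPM and called members of each list, Scx and Bop1. Not all of these are printed, some items are not reported here nor counted in the lists, and others are named as chosen on their values or to complete a list. Members and lists were chosen with earlier results of these data known. Alternatives were RLE size factors, library totals, filterByExpr, DESeq2 1.42.0, a replicate block, thinning to 118567 counts, leaving out Rnr1 and Rnr2, a fit together with cortex, no robust estimation and leaving out each library. A minimum of 20 CPM and a block across tissues were added after the data were seen. The fits were tested on simulated data.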

Additional observations from a re-analysis of the deposited data

How the results depend on the processing

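The 552 genes called in hippocampus became 131 with filterByExpr, which kept 4680 genes, 286 with a minimum of 20 CPM, and 1596 in a fit together with cortex. Leaving out a library gave 251 to 689 calls, with 251, 252 and 327 without Scx-/- replicates 1, 2 and 3. The 1 call at an adjusted p under 0.05 became 0 with RLE size factors, library totals, filterByExpr, the minimum of 20 CPM, thinned libraries, DESeq2 and without Rnr1 and Rnr2, where 570, 568, 151, 317, 483, 520 and 578 genes had an unadjusted p under 0.05. It became 8 in the fit with cortex and 0 to 2 without a library, with 0 without any one Scx-/- library. The gene passing was Zbtb4 without wild-type replicate 2 and Hbb-bs without robust estimation, and Edf1 was among 2 without wild-type replicate 3. The 1 gene that differed between tissues became 0 with thinned libraries and 1 to 20 without a library, with 12, 20 and 6 without wild-type hippocampus replicates 1, 2 and 3 and 2 without Scx-/- hippocampus replicate 2. Of 36 called genes described by the naming rule, 4 (Aldoc, Gmps, Spata2l and Tbpl1) kept their call in every alternative that tested them. Xist, not called, had log2 fold changes from -8.25 to 1.70 when a library was left out. It turned negative with a replicate block (-1.33) and without Scx-/- replicate 1, where it passed the study's thresholds.

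Replicate numbers did not pair wild-type with Scx-/- libraries (correlations of deviations of 0.014, -0.001 and 0.003 for equal numbers), and a replicate block gave 198 calls, 167 higher and 31 lower, and 2 at an adjusted p under 0.05, Aldoc and Hbb-bs. The block across tissues left the count of genes that differed between tissues at 1. The depth of the wild-type libraries, 118567 to 184695 counts, limits what can be seen of genes under about 25.3 CPM.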
